A study of Homo sapiens with 4 samples.

Results

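The genes described here are MCL1 and 9 relatives of the BCL2 family, which decide whether the outer membrane of mitochondria is opened and a cell dies by apoptosis. They were measured by RNA-seq in U87, an established human glioblastoma cell line. Members were taken by symbol from both deposited gene tables, and all 10 symbols were found among the 18217 symbols that the tables share. The set was chosen by measured values of these same libraries, the FPKM of MCL1 with and without the ALKBH5 shRNA among them, so the members' changes are given as a description with no test.

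There were 4 groups with 1 library each. They were wild-type (WT) U87 cells in hypoxia (1% O2) and WT cells in normoxia, whose values stand in the first table, and hypoxic cells that carry either the ALKBH5 shRNA (shALKBH5) or its scrambled control (shScr), whose values stand in the second. All cells grew in medium with 10% serum. The labels name 1 shRNA against ALKBH5, give neither its sequence nor the hours in hypoxia, and list no shRNA library in normoxia. Of the glioblastoma markers, VIM stood between 552 and 4494 FPKM over the 4 libraries, CD44 between 67.2 and 277 FPKM, NES between 2.93 and 12.4 FPKM and OLIG2 between 0 and 1.35 FPKM, while GFAP, S100B and SOX2 stayed under 0.3 FPKM in each. The 6 fibroblast and pericyte markers summed to 415 FPKM in WT hypoxia and 86.5 FPKM in WT normoxia, each of the 6 being higher in WT hypoxia, with PDGFRB at 10.9 FPKM in WT hypoxia and 0.73 FPKM in WT normoxia. They summed to 574 FPKM with shALKBH5 and 457 FPKM with shScr. PDGFRB went the other way there, with 12.98 FPKM with shALKBH5 and 16.11 FPKM with shScr. COL1A1, COL1A2, LUM, DCN and ACTA2 were each higher with shALKBH5. The 5 endothelial markers summed to 7.11 FPKM in WT hypoxia, 16.5 FPKM in WT normoxia, 7.66 FPKM with shALKBH5 and 5.76 FPKM with shScr, with CDH5 at or near 0 in each. Most of the WT normoxia sum was KDR, with 15.2 FPKM there and 2.2 FPKM in WT hypoxia. PECAM1, TEK and VWF were instead higher in WT hypoxia than in WT normoxia. Of the 5 immune markers, CD3E and AIF1 were at 0 and PTPRC at most at 0.23 FPKM in the 4 libraries, while CD68 had 255 FPKM in WT hypoxia, 290 FPKM in WT normoxia, 0 FPKM with shALKBH5 and 0.154 FPKM with shScr. The part of these markers in the members' changes was not tested. ALKBH5, the target of the shRNA, stood at 113 FPKM with shALKBH5 and 186 FPKM with shScr, and its log2 change of -0.71 did not reach 2-fold. The ALKBH5 change was -0.46 in TPM, which gives each library the same sum, and -0.53 per total recovered reads. In WT cells ALKBH5 stood at 83.5 FPKM in hypoxia and 39.6 FPKM in normoxia. That log2 change was 1.06, past 2-fold, or 0.96 in TPM, under it. The shALKBH5 library held 16780154 recovered reads and the shScr library 17859370. For the WT libraries no read numbers could be had, so their depth is unknown.

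The family has 3 kinds of members. MCL1, BCL2, BCL2L1 (BCL-XL) and BCL2L2 (BCL-W) are anti-apoptotic proteins that hold the killers in check. BAX and BAK1 are the effectors that form the pore through which cytochrome c leaves mitochondria. BCL2L11 (BIM), BBC3 (PUMA), PMAIP1 (NOXA) and BID carry only the BH3 domain, bind the anti-apoptotic proteins and set the effectors free. The MCL1 protein is short-lived, and NOXA binds it with preference and promotes its breakdown, so the transcript levels of this pair are of particular interest. MCL1, BCL2L1 and BCL2L11 are also known for splice forms that differ in activity, and gene-level values do not separate these.

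ALKBH5 removes the m6A methyl mark from RNA, which is placed within a short consensus whose commonest form in the DNA alphabet is GGACT. Matches to these letters in the main MCL1 transcript are shown because MCL1 was the member with the largest change when the ALKBH5 shRNA was present. The GENCODE transcript of 3932 bases, on the minus strand of GRCh38 chromosome 1, held 7 matches, and each is printed with its flanks and with the match in capitals.
MCL1 chr1:150579488-150579508, exon 1, coding: cggtaatcGGACTcaacctct
MCL1 chr1:150578259-150578279, exon 2, coding: acaaaacgGGACTggctagtt
MCL1 chr1:150577294-150577314, exon 3, 3′ UTR: atgcagttGGACTccaagctg
MCL1 chr1:150577103-150577123, exon 3, 3′ UTR: atggaggaGGACTtttagatt
MCL1 chr1:150576827-150576847, exon 3, 3′ UTR: agtgttcaGGACTtttatacc
MCL1 chr1:150575583-150575603, exon 3, 3′ UTR: ttttccttGGACTggtatctt
MCL1 chr1:150575315-150575335, exon 3, 3′ UTR: tagtctgtGGACTccatttaa
The transcript of PMAIP1, on the plus strand of chromosome 18, held 2 matches, shown because it was the member with the lowest change in both comparisons.
PMAIP1 chr18:59900066-59900086, exon 1, 5′ UTR: tgcctgcaGGACTgttcgtgt
PMAIP1 chr18:59902769-59902789, exon 2, 3′ UTR: gcatgaggGGACTccttcaaa

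The density of these letters was 1.78 matches per kilobase in MCL1 and 1.03 in PMAIP1, counted on the transcript strand only. Over 19652 protein-coding genes with 1 transcript each, the median was 0.934 per kilobase. Of the 10 members, 9 lay above that median. BBC3 had the highest density, 3.81 per kilobase, followed by BAX with 2.52, BAK1 with 2.34 and BCL2L1 with 2.30. BCL2 had the lowest, 0.402. MCL1 was thus not the member with the densest matches. A match is not a measured m6A site, and methylation was not measured in these libraries.

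Levels are in FPKM (fragments per kilobase, scaled by each library's reads), so they can be compared between genes, and each change below is the difference of log2(FPKM + 1), which understates the change of genes at low level. With 1 library per group no change has a replicate check, and genes are counted by a size rule of at least 2-fold. Counts use genes with a mean of at least 1 FPKM over the libraries compared. Intervals for the shRNA table are 95% exact (Clopper-Pearson) binomial intervals of the log2 read ratio with no constant. They cover counting error only and compare those libraries, not the conditions.

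**Figure D1:**
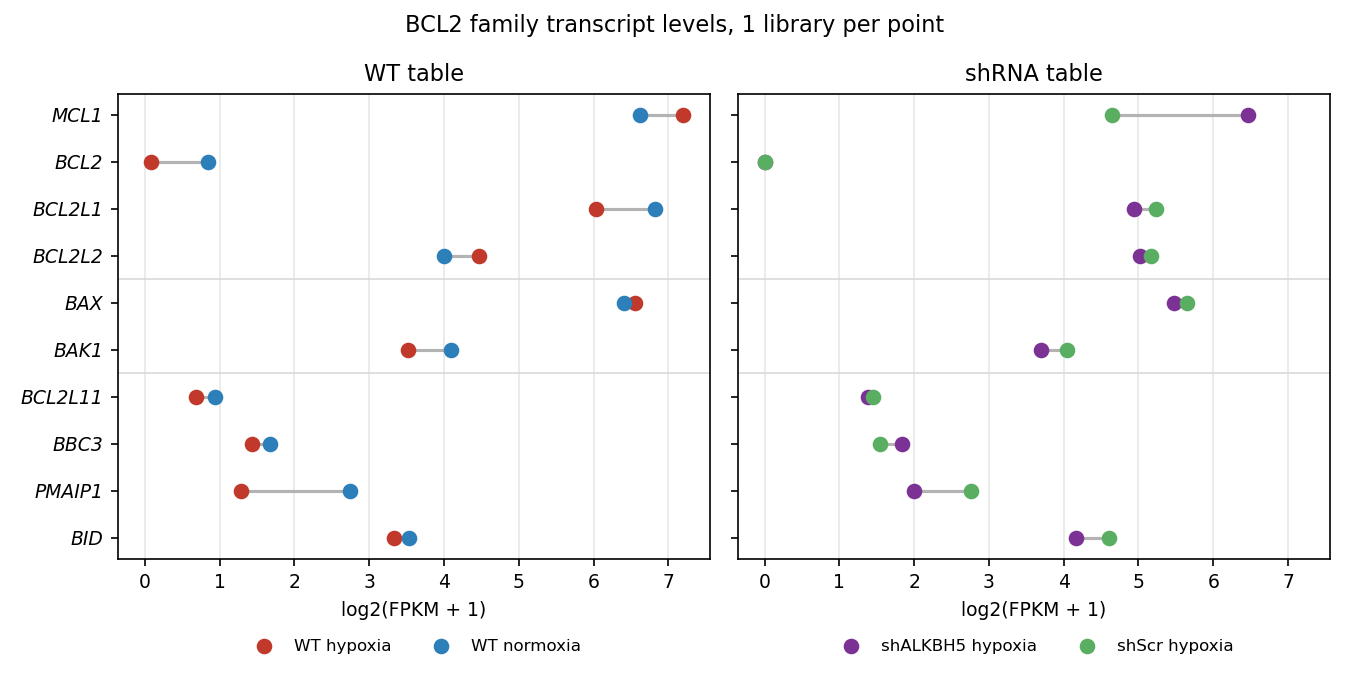
Transcript levels of the 10 members as log2(FPKM + 1), with 1 point per library and a grey line joining the libraries of a table; the tables were normalised separately. MCL1 in the shScr library lies far left of the shALKBH5 library, PMAIP1 is lower in WT hypoxia than in WT normoxia, and the points of BCL2 in the shRNA table lie on each other near 0.

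In WT cells, hypoxia went with a higher MCL1 level and lower levels of BCL2L1 and PMAIP1, though only PMAIP1 passed the 2-fold rule. Of the 10 members, 8 passed the filter on low values. None of these was at least 2-fold higher, against 7.41% of 11050 genes, and 1 was at least 2-fold lower, against 14.7% of those genes, so that 22.1% of genes passed the rule in either direction. Of the 8, 3 lay above 0, against 30.8% of genes, and 5 below 0, against 69.1%, and relative to the median gene the split was 5 above and 3 below. The median change of the 8 was -0.22 and that of all genes -0.35, so a member near the median gene has a value below 0.

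MCL1 (ENSG00000143384), at 150574551 to 150579738 on GRCh38 chromosome 1, had 146 FPKM in WT hypoxia and 97.4 FPKM in WT normoxia. Its log2 change was 0.58, under the 2-fold rule, or 0.93 relative to the median gene. Relative to the tenth of genes with the highest mean FPKM, to which MCL1 belongs, it was 0.61, since their median change was -0.03. BCL2L1 (ENSG00000171552, chromosome 20, 31664452 to 31723989) stood at 64.4 FPKM in WT hypoxia and 112 FPKM in WT normoxia, a change of -0.79. The order of these 2 genes was thus reversed between the libraries, with MCL1 the higher in hypoxia and BCL2L1 the higher in normoxia. BCL2L2 (ENSG00000129473, chromosome 14) stood at 21.2 FPKM in WT hypoxia and 15.0 FPKM in WT normoxia, a change of 0.47. BCL2, the founding member of the family, was scarce, at 0.06 FPKM in WT hypoxia and 0.80 FPKM in WT normoxia, and was under the filter.

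The effector BAX (ENSG00000087088, chromosome 19, 48954815 to 48961798) stood at 92.8 FPKM in WT hypoxia and 84.0 FPKM in WT normoxia. Its log2 change was 0.14, or 0.49 relative to the median gene and 0.17 relative to genes of like mean FPKM. BAK1 (ENSG00000030110, chromosome 6) stood at 10.4 FPKM in WT hypoxia and 16.1 FPKM in WT normoxia, a change of -0.58. BAX was therefore the main effector transcript, with 89.9% of the summed effector FPKM in WT hypoxia and 83.9% in WT normoxia.

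PMAIP1 (ENSG00000141682, chromosome 18, 59899948 to 59904306) fell to 1.44 FPKM in WT hypoxia, against 5.71 FPKM in WT normoxia. Its log2 change was -1.46, or -1.11 relative to the median gene, which ranked 478 from the lowest of the 11050 genes. As a plain ratio of FPKM the WT normoxia level was 3.97 times the WT hypoxia level. BID, which caspase-8 cleaves to link death receptors to mitochondria, stood at 9.07 FPKM in WT hypoxia and 10.6 FPKM in WT normoxia, a change of -0.20 that turned to 0.15 relative to the median gene. BBC3 stood at 1.71 FPKM in WT hypoxia and 2.20 FPKM in WT normoxia, a change of -0.24 that turned to 0.11 relative to the median gene. BCL2L11, which is induced by FOXO factors and by loss of growth factors, stood at 0.61 FPKM in WT hypoxia and 0.91 FPKM in WT normoxia, under the filter.

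**Figure D2:**
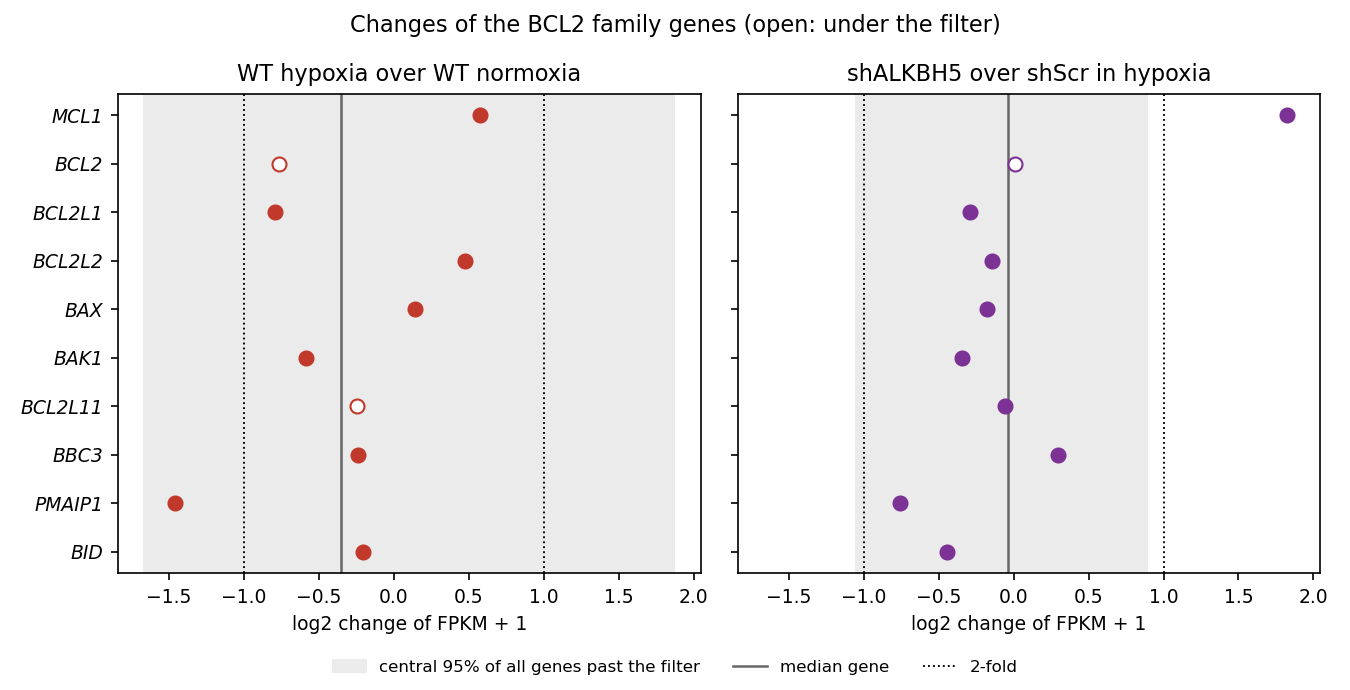
Log2 change of FPKM + 1 for the 10 members in each comparison, with open points for members under the filter, a grey line for the median gene, a grey band for the central 95% of all genes past the filter, and dotted lines at 2-fold. MCL1 at 1.82 is the only member outside the band, and PMAIP1 at -1.46 is the only other member past 2-fold.

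Promoters are shown for PMAIP1, the member past 2-fold in hypoxia, and for BAX, whose promoter holds the most matches to the core letters bound by hypoxia-inducible factors, ACGTG and GCGTG. The core of the cyclic AMP response element bound by ATF and CREB factors, TGACGT, was searched as well. All 3 were searched on both strands, overlapping matches to ACGTG were joined, and a TGACGT followed by G would also count as ACGTG. RefSeq promoters of 300 bases (GRCh38.p14) were found for 8 of the 10 members, the others being MCL1 and BCL2L2. Among 35116 promoters of this length, 21.4% held ACGTG, 36.5% held GCGTG and 7.98% held TGACGT. Matches are in capitals.
PMAIP1 chr18:59899746-59900045, plus strand: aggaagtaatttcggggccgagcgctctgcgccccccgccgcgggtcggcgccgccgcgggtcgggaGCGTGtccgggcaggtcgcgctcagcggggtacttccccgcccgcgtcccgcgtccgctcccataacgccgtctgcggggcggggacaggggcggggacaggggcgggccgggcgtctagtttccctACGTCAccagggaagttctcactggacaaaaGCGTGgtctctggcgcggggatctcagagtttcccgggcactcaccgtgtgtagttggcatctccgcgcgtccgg
BAX chr19:48954625-48954924, plus strand: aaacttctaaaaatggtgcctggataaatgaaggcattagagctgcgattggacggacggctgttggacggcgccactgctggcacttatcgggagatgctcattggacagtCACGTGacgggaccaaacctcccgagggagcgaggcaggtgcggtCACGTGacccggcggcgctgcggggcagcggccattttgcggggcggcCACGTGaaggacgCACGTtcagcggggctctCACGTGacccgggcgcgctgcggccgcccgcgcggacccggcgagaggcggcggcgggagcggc
The BAX promoter held 5 ACGTG sites. The BAX change in WT hypoxia was 0.14, or 0.49 relative to the median gene and 0.17 relative to genes of like mean FPKM. A link between sites and level was not tested. PMAIP1 held 2 GCGTG sites and 1 TGACGT site. BBC3 held 1 ACGTG site, BCL2L11 held 2 GCGTG sites and BID held 1, while the windows of BCL2, BCL2L1 and BAK1 held none of the 3 motifs. Binding of factors was not measured.

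In hypoxic cells with the ALKBH5 shRNA, MCL1 was 3.65 times as high as with the scrambled shRNA, and no other member reached 2-fold. PMAIP1 was again the member with the lowest value. Of the 10 members, 9 passed the filter, and 1 was at least 2-fold higher, against 1.76% of 10925 genes, with none at least 2-fold lower, against 3.0% of those genes, so that 4.76% of genes passed in either direction. Of the 9, 2 lay above 0, against 46.9% of genes, and 7 below 0, against 53.1%. In TPM or per total recovered reads the split was 5 above and 4 below 0, but there the median gene itself lay above 0. Relative to the median gene of the deposited scaling the split was 2 above and 7 below. Since MCL1 helped to choose the set, nothing is read from these shares. The median change of the 9 was -0.17 and that of all genes -0.04. In TPM, which gives each library the same sum, the median of all genes moved to 0.23, and per total recovered reads to 0.10.

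MCL1 stood at 87.4 FPKM with shALKBH5 and 24.0 FPKM with shScr, from 6058 reads with shALKBH5 and 1558 reads with shScr. Its log2 change was 1.82, and the counting interval of the read ratio ran from 1.79 to 1.95. It ranked 23 from the highest of the 10925 genes, and 3 among the 5907 genes with a mean of at least 5 FPKM. The tenth of genes with the highest mean FPKM, to which MCL1 belongs, had a median change of -0.34. In bulk RNA, fewer cells with MCL1 and less MCL1 RNA per cell cannot be told apart. At the MCL1 locus the table lists 1 overlapping gene, ADAMTSL4-AS1, with 0 reads in both libraries.

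BCL2L1 and BCL2L2 lay close to each other in both libraries, and BCL2 was at or near 0. BCL2L1 stood at 29.7 FPKM with shALKBH5 and 36.5 FPKM with shScr, a log2 change of -0.29 with a counting interval from -0.40 to -0.20. That interval holds for the deposited scaling, and the BCL2L1 change was -0.04 in TPM and -0.11 per total recovered reads. BCL2L2 stood at 31.5 FPKM with shALKBH5 and 34.9 FPKM with shScr, a change of -0.14 that turned to 0.11 in TPM and 0.03 per total recovered reads. BCL2L2 shares its locus with PPP1R3E, HOMEZ and the read-through gene BCL2L2-PABPN1, and BCL2L1 with the antisense gene ABALON (109 reads with shALKBH5 and 164 with shScr), so the source of some of their reads is uncertain. BCL2 had 1 read with shALKBH5 and 0 with shScr, where 3 reads would be 0.0161 FPKM with shALKBH5 and 0.0172 FPKM with shScr.

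Both effectors had slightly lower FPKM with shALKBH5. BAX stood at 43.3 FPKM with shALKBH5 and 49.1 FPKM with shScr, a log2 change of -0.17 that turned to 0.08 in TPM and 0.004 per total recovered reads. BAK1 stood at 11.98 FPKM with shALKBH5 and 15.5 FPKM with shScr, a change of -0.34 with a counting interval from -0.56 to -0.18 under the deposited scaling. The BAK1 change was -0.11 in TPM and -0.17 per total recovered reads.

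Among the BH3-only genes, PMAIP1 stood at 2.99 FPKM with shALKBH5 and 5.75 FPKM with shScr, from 106 reads with shALKBH5 and 191 reads with shScr. Its log2 change was -0.76 on the FPKM + 1 scale, under the 2-fold rule, and the read ratio had a counting interval from -1.30 to -0.59. BID stood at 16.9 FPKM with shALKBH5 and 23.4 FPKM with shScr, a change of -0.44. BBC3 stood at 2.56 FPKM with shALKBH5 and 1.90 FPKM with shScr, a change of 0.29 from 129 reads with shALKBH5 and 90 with shScr. BCL2L11 had 171 reads in each library, and its change of -0.06 turned to 0.14 in TPM and 0.05 per total recovered reads. It also lies within the locus of the non-coding gene MIR4435-2HG on the opposite strand, so its reads are of uncertain source.

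Ratios of 2 genes within a library do not depend on how the library was scaled. In WT hypoxia, MCL1 made up 63.0% of the summed FPKM of the 4 anti-apoptotic genes, against 43.2% in WT normoxia. With shALKBH5 it made up 58.8%, against 25.1% with shScr. BCL2L1 held 27.8% in WT hypoxia, against 49.8% in WT normoxia, and 20.0% with shALKBH5, against 38.3% with shScr. MCL1 was thus the leading anti-apoptotic transcript in the WT hypoxia and shALKBH5 libraries, and BCL2L1 in the WT normoxia and shScr libraries. In the shScr library BCL2L2 followed BCL2L1 closely, with 36.6%.

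**Figure D3:**
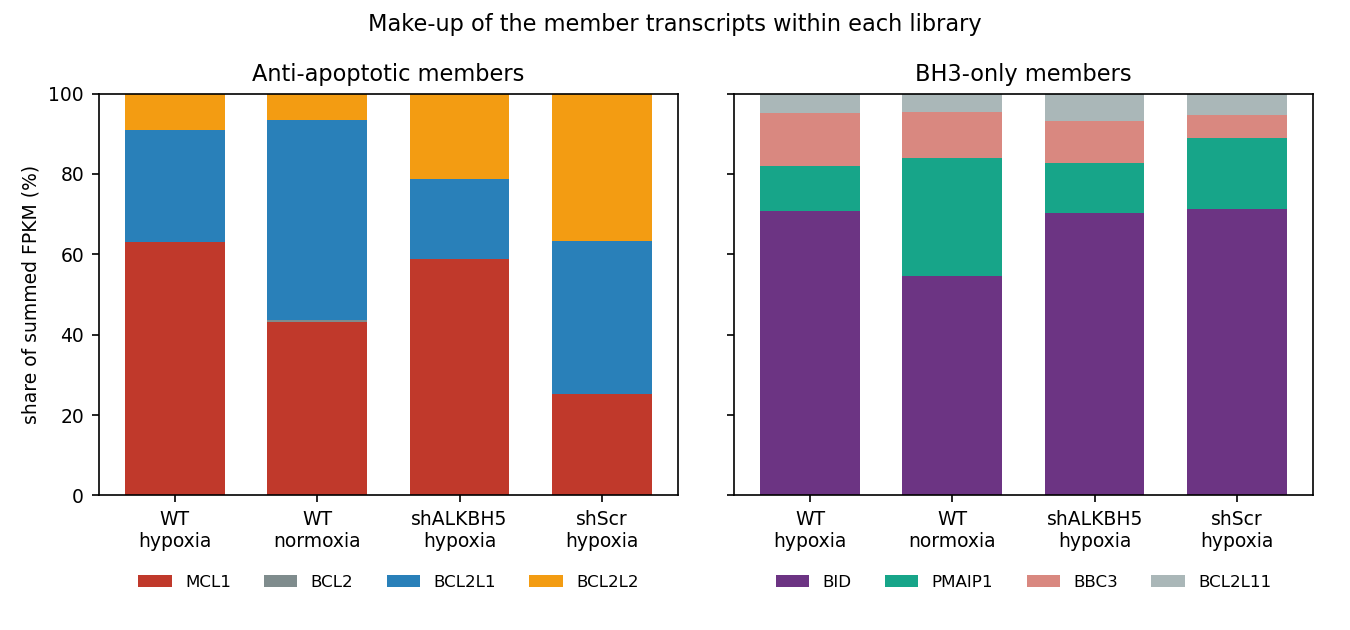
Share in percent of the summed FPKM of the anti-apoptotic members (left) and of the BH3-only members (right) in each of the 4 libraries. MCL1 takes 63.0% of the anti-apoptotic sum in WT hypoxia, 43.2% in WT normoxia, 58.8% with shALKBH5 and 25.1% with shScr, and BID takes the largest share of the BH3-only sum in each library.

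The ratio of MCL1 to its partner PMAIP1 combines the members' highest and lowest changes, so it had to differ more than either gene alone. It was 101 in WT hypoxia and 17.1 in WT normoxia, 5.94 times as high in hypoxia. It was 29.2 with shALKBH5 and 4.17 with shScr, 7.01 times as high with shALKBH5. From the reads, the odds ratio of this pair between the shRNA libraries was 7.0, with a 95% exact conditional interval from 5.46 to 9.03 for counting error only. For MCL1 against BAX the odds ratio was 4.13 (3.79 to 4.50), and for MCL1 against BCL2L1 it was 4.48 (4.10 to 4.89). The sum of the anti-apoptotic genes was 2.24 times that of the effectors in WT hypoxia and 2.25 times in WT normoxia, so the higher MCL1 and lower BCL2L1 levels in hypoxia left this sum ratio nearly level. With shALKBH5 it was 2.69, against 1.48 with shScr.

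The tables were normalised separately, so levels across them can only be set side by side. Single genes differ widely between them in either direction. CD68 stood at 255 FPKM in WT hypoxia and 0.154 FPKM with shScr, and PMAIP1 at 1.44 FPKM and 5.75 FPKM in that order. Whether genes were also counted with different gene models was not tested, and this cannot be told apart from a difference in level. Of 18104 protein-coding genes in both tables, MCL1 stood at percentile 97.2 with shALKBH5, 88.8 with shScr, 97.1 in WT hypoxia and 95.3 in WT normoxia. The shScr library thus gave the lowest MCL1 rank of the 4. The shScr level of MCL1 lay 2.55 below that of WT hypoxia on the log2(FPKM + 1) scale, a difference of -2.55 where the central 90% of 9254 genes ran from -2.36 to 1.10 around a median of -0.64. The shALKBH5 level differed from WT hypoxia by -0.73, near the median of -0.64. Whether the MCL1 difference between the shRNA libraries reflects a high level with shALKBH5 or a low level with shScr cannot be told apart with 1 library per group.

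**Figure D4:**
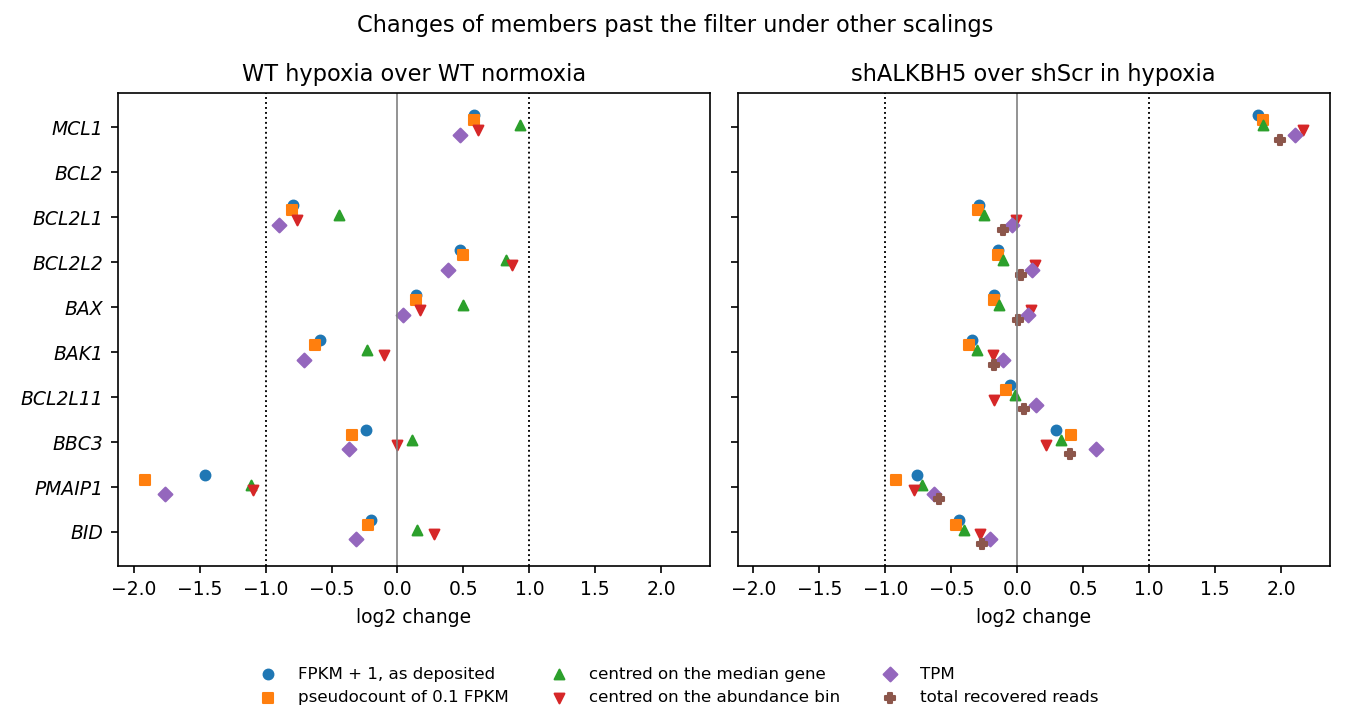
Log2 change of each member past the filter as deposited and under other constants and scalings, with dotted lines at 2-fold. MCL1 stays between 1.82 and 2.17 with shALKBH5 over shScr, and PMAIP1 stays below 0 in both panels, while members near 0 change sides.

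The genes most like MCL1 were sought by the distance between pairs of log2 changes over the 4 libraries, among 5248 other genes with a mean of at least 5 FPKM in both tables. The nearest was MT1M, a metallothionein gene, with 0.79 in hypoxia and 1.81 with shALKBH5, at a distance of 0.21. TGFBR2, the type II receptor of TGF-beta, had 0.46 in hypoxia and 1.62 with shALKBH5, at a distance of 0.24. SEMA7A, a membrane-bound semaphorin gene, followed with 0.65 and 1.40, the latexin gene LXN with 1.05 and 1.76, and MTHFD2, a mitochondrial folate enzyme gene, with 0.55 and 1.30, each pair given as hypoxia and then shALKBH5. MT1M and LXN had under 300 reads in each shRNA library.

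Other genes of the mitochondrial death pathway were counted in 6 lists. In WT hypoxia the largest changes in the family belonged to BNIP3 and BNIP3L, BH3-like mitophagy receptors that hypoxia-inducible factors are known to induce. BNIP3 stood at 669 FPKM in WT hypoxia and 55.2 FPKM in WT normoxia, and BNIP3L at 395 FPKM in WT hypoxia and 29.3 FPKM in WT normoxia, log2 changes of 3.58 and 3.71. Of the 16 further family genes 8 passed the filter, with these 2 at least 2-fold higher and BCL2A1, an NF-kB-driven anti-apoptotic gene, lower (2.10 FPKM in WT hypoxia and 7.54 FPKM in WT normoxia, change -1.46). Over all genes 7.41% were higher and 14.7% lower. The median of the 8 was -0.32. With shALKBH5, 6 of the 16 passed and none reached 2-fold, against 4.76% of all genes in either direction. BAD, whose BH3 domain binds BCL-XL, came nearest, with 39.6 FPKM with shALKBH5 and 76.3 FPKM with shScr, a change of -0.93, and the median of the 6 was -0.07.

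Of the 15 apoptosome and caspase genes, all passed the filter in the WT table, with 1 at least 2-fold higher, against 7.41% of all genes, and 4 lower in hypoxia, against 14.7%. ENDOG, a mitochondrial nuclease gene, was higher (1.88), and the lower genes included the initiator caspase gene CASP2 (-1.21), AIFM1 (-1.43), whose protein leaves mitochondria in cell death, and DFFA (-1.08), which restrains a DNA-cutting nuclease. Relative to the median gene, 2 were higher, namely ENDOG and APAF1, the scaffold of the apoptosome, and 1 was lower, AIFM1. Over all genes 1317 were higher and 633 lower when so centred, against 819 and 1628 as deposited. In TPM, 2 were higher, the same pair, and 6 lower, among them CYCS, the cytochrome c gene, and the mitochondrial protease gene HTRA2. Over all genes 858 were higher and 2403 lower in TPM. These all-gene counts also stand beside the lists below. With shALKBH5, 11 passed and none reached 2-fold, against 4.76% of all genes in either direction. CASP6, an executioner caspase gene, stood at 6.72 FPKM with shALKBH5 and 3.57 FPKM with shScr, and its change of 0.76 became 1.10 in TPM, past the rule. In TPM the median gene lay at 0.23 and 1206 of all genes were higher, against 192 as deposited. The median of the 15 was -0.27 in WT hypoxia, and that of the 11 with shALKBH5 was 0.05.

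Of the 9 inhibitors of apoptosis, 6 passed the filter in the WT table and 1 was at least 2-fold lower in hypoxia, against 14.7% of all genes. This was BIRC5 (survivin), a mitotic gene, with a change of -1.10 that was -0.74 relative to the median gene and so under the rule. In TPM 8 passed and 3 were lower, BIRC5 with the ubiquitin ligase genes BIRC2 and BIRC3. Over all genes 2403 were lower in TPM, against 1628 as deposited. With shALKBH5, 2 of 5 were at least 2-fold lower, against 3.0% of all genes. BIRC5 stood at 13.1 FPKM with shALKBH5 and 36.3 FPKM with shScr, a change of -1.40. CFLAR, which blocks caspase-8 at death receptors, stood at 2.68 FPKM with shALKBH5 and 7.62 FPKM with shScr, a change of -1.23. XIAP, a direct caspase inhibitor gene, stood at 6.68 FPKM with shALKBH5 and 3.73 FPKM with shScr, a change of 0.70. It became 1.03 in TPM, past the rule, where the median gene lay at 0.23 and 1206 of all genes were higher. The list's median was -0.83 in WT hypoxia and 0.00 with shALKBH5.

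Of 11 genes that act on the stability of the MCL1 protein, 10 were matched by symbol. Of these, 9 passed in the WT table, with none at least 2-fold higher, against 7.41% of all genes, and 2 lower, against 14.7%, the deubiquitinase gene USP13 (-1.10) and CDC20 (-1.57), a mitotic activator of the anaphase-promoting complex. The median of the 9 was -0.46. Relative to the median gene IER3 (1.27) and TPT1 (1.12), which codes for an MCL1-binding protein, passed 2-fold upward in hypoxia and USP13 was under the rule. HUWE1, a ubiquitin ligase gene for MCL1, had 15.8 FPKM in WT hypoxia and 25.4 FPKM in WT normoxia, a change of -0.65. With shALKBH5, 2 of 8 were at least 2-fold lower, against 3.0% of all genes. IER3, an early-response gene whose protein binds MCL1, stood at 744 FPKM with shALKBH5 and 2468 FPKM with shScr, a change of -1.73, and CDC20 had a change of -1.41. USP9X, which removes ubiquitin from MCL1, had 10.04 FPKM with shALKBH5 and 10.004 FPKM with shScr. The median of the 8 with shALKBH5 was 0.06.

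Of the 9 mitochondrial partners, all of which passed, 1 was at least 2-fold higher and 1 lower in hypoxia, against 7.41% and 14.7% of all genes. SLC25A4, an ADP/ATP carrier gene, was the higher (1.40) and PPIF, the cyclophilin of the permeability pore, the lower (-1.25, or -0.90 relative to the median gene). None reached 2-fold with shALKBH5, against 4.76% of all genes in either direction. Relative to the median gene VDAC1, a channel gene of the outer membrane, was also past 2-fold upward in hypoxia. The list's median was 0.14 in WT hypoxia and -0.39 with shALKBH5. Of 14 transcription factor genes linked to the family, 12 passed in each table, with 1 higher and 1 lower in hypoxia, against the same shares of all genes. ATF3, a stress-induced factor, was higher in hypoxia (1.31) and MYC lower (-1.30, or -0.95 relative to the median gene and so under the rule). Relative to the median gene ATF4 and RELA were past 2-fold upward as well, and in TPM the stress factor gene ATF5 was also lower. The list's median was -0.21 in WT hypoxia and 0.09 with shALKBH5. With shALKBH5, 1 was at least 2-fold lower, against 3.0% of all genes. This was HIF1A (-1.23, or -0.98 in TPM and under the rule), and ATF3 lay at the edge of the rule, at 0.999, and past it in TPM (1.40).

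**Figure D5:**
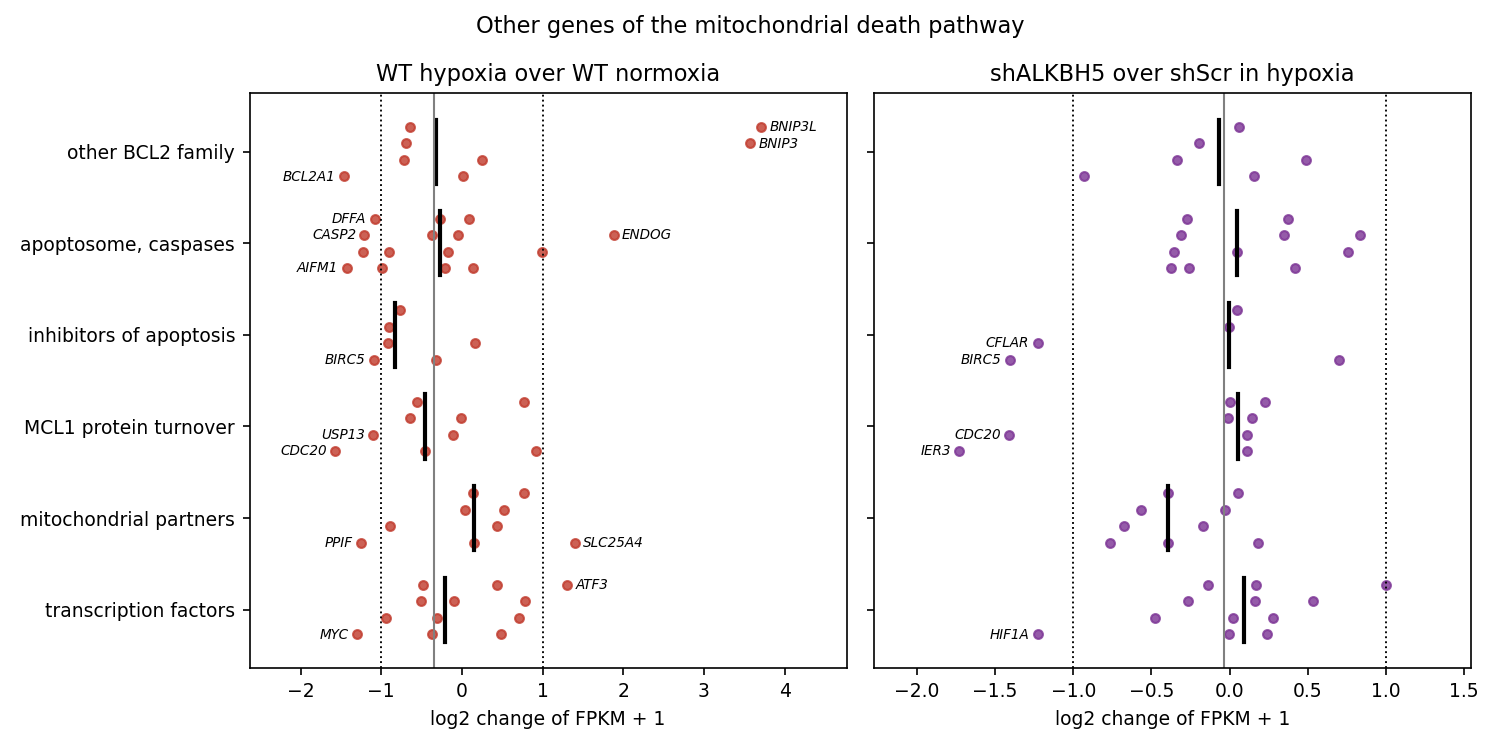
Log2 change of FPKM + 1 for the genes of the 6 further lists that passed the filter, with a black bar at each list's median, a grey line at the median gene, dotted lines at 2-fold and names beside most genes past them. BNIP3 and BNIP3L stand far to the right in WT hypoxia over WT normoxia, and no gene of these lists passes 2-fold upward with shALKBH5 over shScr as deposited. CASP6, XIAP and ATF3 are among those that do in TPM, where 1206 of all genes do, against 192 as deposited.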

How the data were processed

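RNA-seq libraries of U87 cells were prepared with an NEBNext Ultra RNA kit, per the labels' protocols. The authors deposited FPKM values in 2 gene tables, 1 for the WT libraries and 1 for the shRNA libraries. The submitters' processing notes name hg19, while the coordinates in the shRNA table are those of GRCh38 gene models and are given as such. The sources used here name neither the aligner nor the counting tool nor the use of strand. Of 18964 WT rows, 65 had a symbol turned into a date or number and were left out. Of 58735 shRNA rows, 1566 repeated the symbol of a more abundant row and were dropped. Whole reads were recovered from the shRNA FPKM and gene lengths, and 100% of values came out whole to within 0.01 read. With no replicates, no count test was run on them. The deposited FPKM divide by 94.5% of the recovered total with shALKBH5 and by 83.2% with shScr, and scaling by the total raises shALKBH5 by 0.18 (log2).

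Changes were differences of log2(FPKM + 1) within a table, for genes with a mean of at least 1 FPKM. With 1 library per group there was no test. Members, lists and rules were chosen with earlier results of these data known. Named genes were all members, members of each further list past 2-fold and up to 4 others with the largest changes, and the 5 nearest to MCL1; values of some list genes are not reported here. HUWE1 and USP9X were named for their known roles after their values were seen. Transcripts, 1 per gene (principal by APPRIS, then longest), came from GENCODE release 29 and promoters from RefSeq. Alternatives were centring on the median gene, TPM, a constant of 0.1 FPKM, a filter at 5 FPKM or none, summed rows, total recovered reads, and rules of 1.5-fold and 3-fold. Centring within 10 bins of mean FPKM was added after seeing the data. The size rule and the interval were tested on counts simulated from the shRNA table with planted changes and counting error only. Differences between cultures were thus not covered. The versions were matplotlib 3.10.9, scipy 1.17.1, pandas 2.3.3, numpy 2.4.6 and Python 3.11.15.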

Additional observations from a re-analysis of the deposited data

How the results depend on the processing

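The MCL1 change with shALKBH5 ran from 1.82 to 2.17 over the alternatives and stayed past 2-fold in each of them. In WT hypoxia it ran from 0.48 to 0.93 and stayed under 2-fold. PMAIP1 ran from -1.92 to -1.10 in WT hypoxia and from -0.92 to -0.60 with shALKBH5, so it stayed on its side of the rule wherever it passed the filter. Members near 0 turned direction. In WT hypoxia BBC3 was at 0.11 when centred on the median gene, and BID at 0.15 when so centred and at 0.27 when centred within its abundance bin. With shALKBH5 in TPM, BCL2L2 was at 0.11, BAX at 0.080 and BCL2L11 at 0.14. Per total recovered reads they were at 0.033, 0.0039 and 0.054 in that order. Centred within the abundance bin, BCL2L2 was at 0.14 and BAX at 0.11.

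The count of members at least 2-fold lower in WT hypoxia, 1, became 0 with a filter of 5 FPKM, 3 under a 1.5-fold rule and 0 under a 3-fold rule. With shALKBH5 the count of lower members, 0, became 1 under a 1.5-fold rule. Over all genes in WT hypoxia, 819 were higher and 1628 lower. These became 1317 and 633 when centred, 1461 and 3906 under a 1.5-fold rule, and 370 and 340 under a 3-fold rule. With shALKBH5, 192 were higher and 328 lower. These became 440 and 531 with a constant of 0.1 FPKM, 82 and 218 with a filter of 5 FPKM, 928 and 1489 under a 1.5-fold rule, and 50 and 66 under a 3-fold rule. In TPM 1206 were higher, and per total recovered reads 181 were lower. Summing rows that share a symbol left the MCL1 shares and the MCL1 to PMAIP1 ratios as they were. No paired analysis was possible because each group has 1 library. For the same reason no replicate could be left out, and the reads of BCL2, PMAIP1, BBC3 and BCL2L11 limit the precision of their values. For the values that moved, the cause was not tested.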
